A study of Mus musculus with 6 samples.

Results

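ANGPTL4, ANGPTL2, the receptors PPARA, PPARD and PPARG, the lipid-handling genes PLIN2, HILPDA, CPT1A and PDK4, and ABHD4 were followed in kidney fibroblasts that had received TGF-β with or without the chemokine CXCL10. The 10 genes were chosen by symbol among the 20323 gene rows of the deposited table, with the highest mean of the 6 count columns to decide between rows of 1 symbol, which was not needed since 0 of the 10 symbols occurred more than once. The list itself was drawn up with results of this same comparison known, and ANGPTL4, its first gene, had the largest rise with CXCL10 among called genes that averaged 5 CPM or more (CPM are counts scaled to the size of the library) and whose groups did not overlap. Its values are therefore given as a description, and the p values of the other genes state where they stood among all genes and are no independent support for the list.

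The 6 RNA-seq libraries came from a line that the labels call RFB, a kidney fibroblast line. Of these, 3 are from cells given TGF-β, which drives fibroblasts toward a matrix-producing state, and 3 are from cells given both TGF-β and CXCL10, with a volume of 5 µl in the sample titles. The TGF-β libraries carry the abbreviation NC in their titles. TGF-β was thus, by the treatment labels, shared by all libraries, and untreated cells were not analysed here. The labels name the mouse, while all 20323 rows carry human Ensembl identifiers, and the series' design text speaks of a SUV39H1 knockdown that no sample label names. The sources used here give neither the length of treatment nor the concentration of either agent nor the number of separate cultures, so p values measure the spread between these libraries, which may be technical.

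PPARα, PPARδ and PPARγ are nuclear receptors that bind fatty acids and their derivatives and, paired with a retinoid X receptor, switch on genes of fatty acid uptake, storage and oxidation. ANGPTL4 and PLIN2 are targets of all 3 receptors in many cell types, and PDK4 and CPT1A are classical targets in tissues that burn fat. ANGPTL4 and HILPDA also respond to hypoxia, and ANGPTL4 and PDK4 to glucocorticoids. ANGPTL4 is further known as a gene that TGF-β can induce.

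Total counts lay between 12838106 and 15587409 per library. Scaled by these totals alone, 3 counts, the limit that a count of 0 allows for counting error, equalled 0.192 to 0.234 CPM. TGF-β replicate 1 stood apart from its group. The first principal component of all tested genes held 48.4% of the variance. On it, TGF-β replicate 1 scored 5.54, and TGF-β replicates 2 and 3 scored -28.3 and -29.5. CXCL10 replicate 1 scored 32.8, against 9.78 and 9.67 for CXCL10 replicates 2 and 3. Each replicate 1 thus scored above the rest of its group. Distances between libraries placed TGF-β replicate 1 at 48.7 and 49.5 from TGF-β replicates 2 and 3. Its distances to CXCL10 replicates 1 to 3 were smaller, at 45.8, 39.7 and 40.9. All 10 fibroblast markers were above 1 CPM, and in the fit that pairs libraries by replicate number 2 were called higher with CXCL10 (THY1 and VIM) and 3 lower (COL1A1, LUM and DCN). The adipocyte markers ADIPOQ, LEP and CIDEA had 0 counts in all libraries, and the summed level of the 10 adipocyte markers was 13.5 to 15.5 CPM with TGF-β and 12.2 to 16.8 CPM with CXCL10. Of 8 proximal tubule markers 6 had 0 counts. Of 6 epithelial markers 5 had a mean over the 6 libraries above 1 CPM, with sums of 3122 to 3647 and 3382 to 3667 CPM. Most of these sums came from the keratins KRT8 (2013 ± 92.0 and 2043 ± 131 CPM), KRT18 and KRT19, while EPCAM had 1 to 8 counts per library. In the same paired fit KRT18 (log2 change 0.23) and KRT19 (0.28) were called higher and CDH1 lower (-1.89, from 2.41 ± 1.13 to 0.70 ± 0.64 CPM). KRT8 (0.02, adjusted p = 0.842) was not called. Of 6 pericyte and smooth muscle markers 4 were tested and 3 called lower, DES (-0.78), CSPG4 (-0.25) and NOTCH3 (-0.29), with sums over the list of 420 to 538 CPM with TGF-β and 344 to 454 CPM with CXCL10. Over all tested genes the same fit called 9.71% higher and 8.04% lower. The fit without pairing called 0 genes, and so none of these markers. The part of other cell types in the values below was not tested. In bulk RNA, a change in the number of cells of a kind and a change of RNA per cell cannot be told apart.

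With CXCL10, ANGPTL4 stood higher in every library than in any TGF-β library, and ABHD4 and CPT1A stood lower in every library. ANGPTL2 and PLIN2 were lower on average, with TGF-β replicate 1 at the level of the CXCL10 libraries. The 3 PPAR receptors and HILPDA overlapped between groups and were called in neither fit, and PDK4 was at the limit of detection. PLIN2 and CPT1A, which PPARs are known to induce, were thus lower on average while ANGPTL4 was higher. Whether PPARs had a part in these differences was not tested. Of the 10 genes 9 passed the filter on low counts. In the unpaired edgeR test 0 of these 9 were called at an adjusted p under 0.05, as were 0% of all 11970 genes tested (smallest adjusted p = 0.161), while 5 of the 9 and 2449 of all genes (20.5%) had an unadjusted p under 0.05. When libraries were paired by replicate number, 1 gene (ANGPTL4) was called higher, beside 9.71% of all genes. In the same paired fit 4 genes (ABHD4, ANGPTL2, CPT1A and PLIN2) were called lower, beside 8.04% of all genes. The groups did not overlap for 1 gene in the upward and 2 genes in the downward direction, beside 11.1% and 11.2% of all genes tested.

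**Figure D1:**
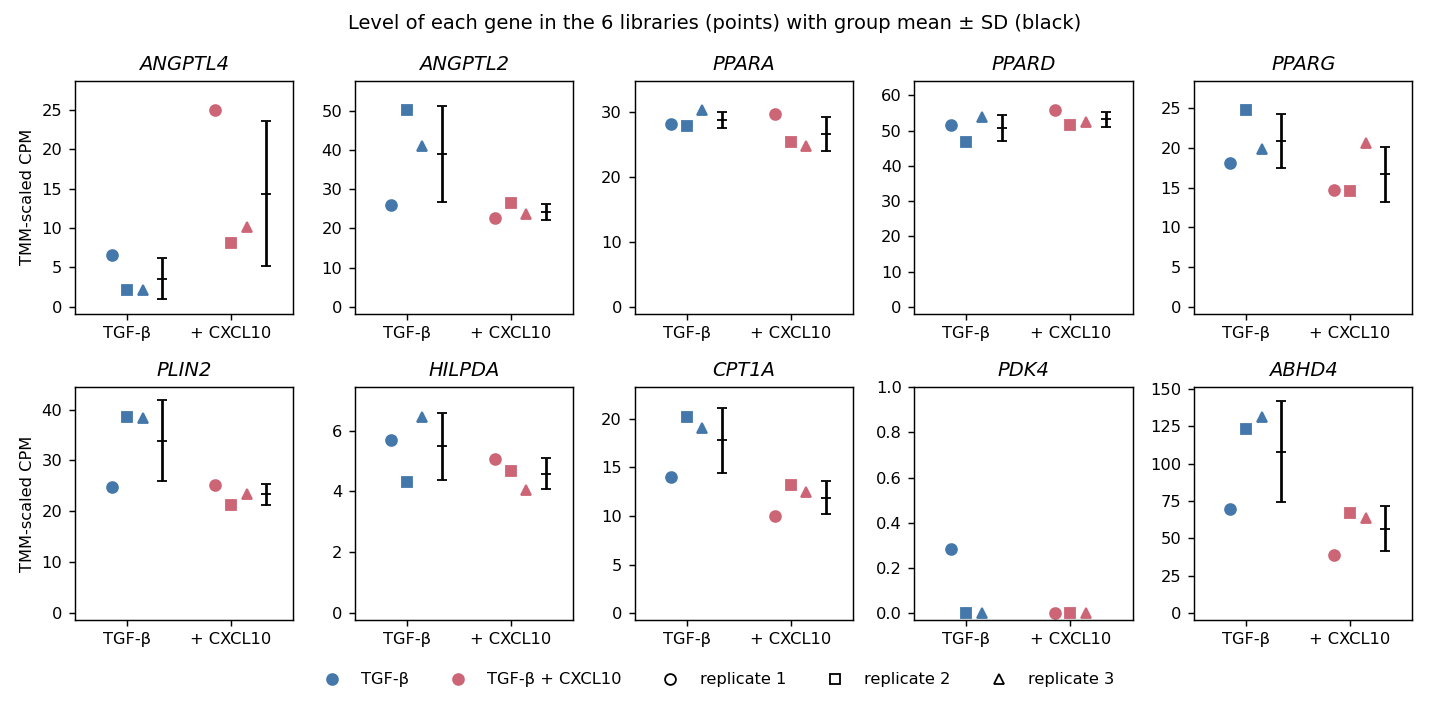
Level of each of the 10 genes in TMM-scaled CPM (vertical axes, each from 0) in the 3 TGF-β and the 3 TGF-β + CXCL10 libraries, with symbols for the replicate number and black bars for the group mean ± SD (none for PDK4, which had counts in 1 library). The groups are separate for ANGPTL4, CPT1A and ABHD4, and TGF-β replicate 1 lies nearest to the CXCL10 libraries for ANGPTL4, ANGPTL2, PLIN2, CPT1A and ABHD4.

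ANGPTL4 (ENSG00000167772) encodes a secreted protein that inhibits lipoprotein lipase and so limits the release of fatty acids from circulating triglycerides. Its level was 6.55, 2.12 and 2.10 CPM in TGF-β replicates 1 to 3, and 24.9, 8.06 and 10.1 CPM in CXCL10 replicates 1 to 3. These values rest on 93, 34 and 28 counts and on 354, 102 and 135 counts. Replicate 1 was the highest library of each group, and the gap between TGF-β replicate 1 and the lowest CXCL10 library was small beside the spread within either group. The mean rose from 3.59 ± 2.56 to 14.4 ± 9.18 CPM (SD, n = 3 per group), a ratio of 3.998, and the log2 change was 2.01 with an SE of 0.51 unpaired and 0.17 paired. Between same-numbered libraries the log2 difference was 1.90, 1.86 and 2.19, so the pairs differed less among themselves than the libraries of a group did. Replicate 1 exceeded the mean of replicates 2 and 3 by 1.57 (log2) within the TGF-β group and by 1.45 within the CXCL10 group. These differences within a treatment were large, though smaller than the 2.01 between treatments. Left out singly, TGF-β replicate 1 moved the unpaired log2 change to 2.77 and CXCL10 replicate 1 moved it to 1.34.

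ANGPTL2 (ENSG00000136859) encodes a related secreted glycoprotein that acts as a proinflammatory and tissue-remodelling factor and is not known as a lipase inhibitor. It stood at 25.9, 50.1 and 41.0 CPM with TGF-β and at 22.6, 26.6 and 23.7 CPM with CXCL10. The CXCL10 libraries were close together, and TGF-β replicate 1 lay among them, below CXCL10 replicate 2. The mean was 39.0 ± 12.2 CPM and 24.3 ± 2.03 CPM. ANGPTL2 fell in the paired fit by 0.65 on the log2 scale (SE 0.12, adjusted p = 0.00212), and the unpaired log2 change was -0.69 (SE 0.20, adjusted p = 0.161). The pair of replicate 1 differed by -0.19 and the other pairs by -0.91 and -0.79. In the authors' deposited table ANGPTL2 had an adjusted p of 0.0478, the only value under 0.05 among the 10 genes, and DESeq2 without pairing also called it alone among them (adjusted p = 0.0248). It was not called by limma-trend on log2(FPKM + 1) with the replicate block (-0.61, adjusted p = 0.0655).

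The ratio of both angiopoietin-like genes changed with these opposite shifts. On the FPKM scale, which accounts for transcript length and library size, ANGPTL4 was 0.468 times ANGPTL2 in TGF-β replicate 1 and 0.0778 and 0.0948 times in replicates 2 and 3. With CXCL10 the ratio was 2.03, 0.558 and 0.803, so ANGPTL4 exceeded ANGPTL2 in CXCL10 replicate 1 and in no other library. Of other genes of the family, ANGPTL1 was near 1 CPM (1.503 ± 0.42 and 1.18 ± 0.51 CPM, paired adjusted p = 0.601). ANGPTL6, ANGPTL7 and ANGPTL8 stayed below 1 CPM in each library, and ANGPTL5 had 0 counts in all of them.

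Among the receptors, PPARD had the highest mean FPKM and PPARA the lowest, and none was called in either fit. PPARD (ENSG00000112033), the broadly expressed receptor, stood at 51.7, 46.8 and 53.7 CPM with TGF-β and 55.7, 51.7 and 52.3 CPM with CXCL10. These groups overlapped almost fully, and the log2 difference was 0.07 (SE 0.08 unpaired, adjusted p = 0.657; 0.550 paired). PPARA (ENSG00000186951), the receptor that drives fat oxidation in liver and kidney tubule, stood at 28.2, 28.0 and 30.3 CPM and at 29.7, 25.4 and 24.8 CPM. Its log2 difference was -0.11 (SE 0.10 unpaired, adjusted p = 0.549; 0.457 paired), and again the groups overlapped.

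PPARG (ENSG00000132170), the receptor of adipocyte formation whose agonists restrain fibroblast activation, stood at 18.2, 24.7 and 19.9 CPM with TGF-β and at 14.8, 14.6 and 20.6 CPM with CXCL10. CXCL10 replicate 3 was above all TGF-β libraries except replicate 2, while the other CXCL10 libraries were below them. The log2 difference was -0.33 (SE 0.17 unpaired, adjusted p = 0.286; SE 0.14 and 0.115 paired), with pair differences of -0.30, -0.75 and 0.05. PPARG passed the paired test when both libraries of replicate 1 (log2 change -0.35, adjusted p = 0.0492) or of replicate 3 (-0.52, adjusted p = 0.0445) were left out. Without those of replicate 2 it stood at -0.12 (adjusted p = 0.696), so 1 pair held much of the difference.

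**Figure D2:**
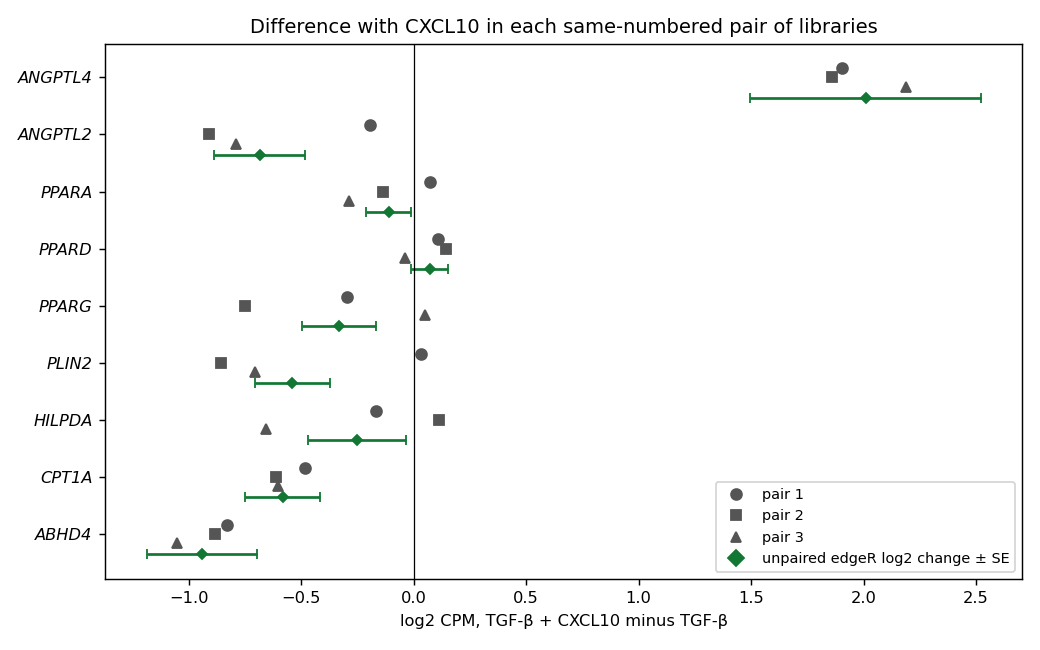
Difference in log2 CPM between same-numbered libraries, TGF-β + CXCL10 minus TGF-β (horizontal axis), for the 9 tested genes, with the unpaired edgeR log2 change ± SE in green. The 3 pairs lie close together for ANGPTL4, CPT1A and ABHD4, and pair 1 lies apart, near 0, for ANGPTL2 and PLIN2.

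PLIN2 (ENSG00000147872) encodes the perilipin that coats lipid droplets in most cells, and its level usually follows the amount of stored neutral lipid. It stood at 24.7, 38.6 and 38.4 CPM with TGF-β and at 25.2, 21.3 and 23.5 CPM with CXCL10. TGF-β replicate 1 again lay among the CXCL10 libraries, and the other TGF-β libraries were above all of them. The mean was 33.9 ± 7.96 CPM and 23.3 ± 1.99 CPM. PLIN2 fell in the paired fit by 0.52 on the log2 scale (SE 0.14, adjusted p = 0.0189), and the unpaired value was -0.54 (SE 0.16, adjusted p = 0.161). The pair of replicate 1 differed by 0.03, against -0.86 and -0.71 in the others. The paired call was lost without both libraries of replicate 2 (adjusted p = 0.0988) or of replicate 3 (adjusted p = 0.159). On all 6 libraries it was also lost with DESeq2 and the replicate block (adjusted p = 0.276) and with limma-trend on log2(FPKM + 1) and the block (adjusted p = 0.165).

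HILPDA (ENSG00000135245), a small lipid droplet protein that inhibits the lipase ATGL and is induced by hypoxia as well as by PPARs, stood at 5.70, 4.30 and 6.46 CPM and at 5.06, 4.66 and 4.05 CPM. The groups overlapped, and the log2 difference of -0.25 (SE 0.22 unpaired) had an adjusted p of 0.535, or 0.508 paired. HILPDA rests on 54 to 86 counts per library, the fewest of the 9 tested genes outside ANGPTL4.

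CPT1A (ENSG00000110090), the carnitine palmitoyltransferase that admits long-chain fatty acids to mitochondrial oxidation, stood at 14.0, 20.2 and 19.1 CPM with TGF-β and at 9.98, 13.2 and 12.5 CPM with CXCL10. All CXCL10 libraries were below all TGF-β libraries, and within each group replicate 1 was the lowest. The mean was 17.8 ± 3.31 CPM and 11.9 ± 1.69 CPM. CPT1A fell in the paired fit by 0.57 on the log2 scale (SE 0.11, adjusted p = 0.00363), with pair differences of -0.48, -0.61 and -0.60, and the unpaired value was -0.58 (SE 0.17, adjusted p = 0.161). On the FPKM scale the groups overlapped, and with limma-trend on log2(FPKM + 1) and the replicate block the change was -0.23 and not called (adjusted p = 0.341).

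PDK4 (ENSG00000004799), the kinase that blocks pyruvate dehydrogenase and spares glucose when fat is burned, had 4 counts in TGF-β replicate 1 (0.282 CPM) and 0 in the other 5 libraries. It did not pass the filter and no fold was formed. A level of up to 0.192 to 0.234 CPM per library, scaled by total counts alone, cannot be told from 0 at this depth. The other pyruvate dehydrogenase kinases were above this limit, and PDK2 is described with its list.

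ABHD4 (ENSG00000100439), a hydrolase that acts on N-acyl phospholipids on the path to N-acylethanolamines, a lipid class whose members include the PPARα ligand oleoylethanolamide, had the highest mean FPKM of the 10 genes. It stood at 69.7, 123 and 131 CPM with TGF-β and at 39.1, 66.6 and 63.3 CPM with CXCL10. All CXCL10 libraries were lower, although TGF-β replicate 1 and CXCL10 replicate 2 were close. The mean was 108 ± 33.5 CPM and 56.3 ± 15.03 CPM. ABHD4 fell in the paired fit by 0.93 on the log2 scale (SE 0.06, adjusted p = 2.89e-06), with pair differences of -0.83, -0.88 and -1.05, and the unpaired value was -0.94 (SE 0.25, adjusted p = 0.161).

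In both groups, replicate 1 differed from the mean of replicates 2 and 3 with the same sign as the difference with CXCL10 for 6 of the 9 tested genes. These were ANGPTL4, ABHD4, CPT1A, ANGPTL2, PPARG and PPARD, and the share of all tested genes with such signs was not counted. For PPARG the difference was -0.29 with TGF-β and -0.23 with CXCL10 (log2 CPM), and for PPARD 0.04 and 0.10. Replicate 1 did not stand apart throughout for PPARG and PPARD. It lay between replicates 2 and 3 for PPARD with TGF-β and for PPARG with CXCL10. Within the TGF-β group, replicate 1 differed from the mean of replicates 2 and 3 by 1.57 for ANGPTL4, -0.87 for ABHD4, -0.48 for CPT1A, -0.80 for ANGPTL2 and -0.64 for PLIN2 (log2 CPM). Within the CXCL10 group the same difference was 1.45 for ANGPTL4, -0.73 for ABHD4 and -0.36 for CPT1A, much as with TGF-β alone. It was -0.15 for ANGPTL2 and 0.18 for PLIN2, so for these genes replicate 1 stood apart with TGF-β and hardly with CXCL10. This contrast between genes was not tested. What sets replicate 1 apart is not given in the labels, and its part in the changes with CXCL10 was not tested beyond the pairing and the leave-outs. In the unpaired test without TGF-β replicate 1, the same 5 genes were called, with log2 changes of 2.77 for ANGPTL4, -1.18 for ABHD4, -0.91 for ANGPTL2, -0.73 for CPT1A and -0.72 for PLIN2. This setting called 2348 of all 12145 genes tested in it. When any 1 of the other 5 libraries was left out instead, 0 of the 9 genes were called, as were 0 of all genes tested.

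**Figure D3:**
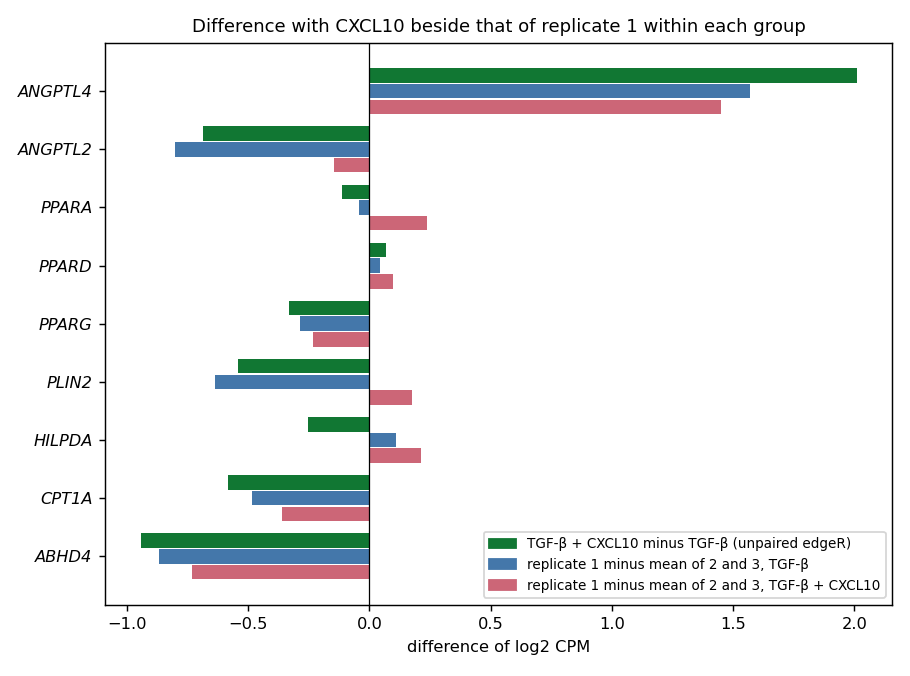
Bars show, in log2 CPM (horizontal axis, from 0), the unpaired difference with CXCL10 (green) beside the difference of replicate 1 from the mean of replicates 2 and 3 within the TGF-β group (blue) and within the TGF-β + CXCL10 group (red). For ANGPTL4, CPT1A, ABHD4, ANGPTL2, PPARG and PPARD all 3 bars point the same way, though those of PPARD are all short. For ANGPTL2 and PLIN2 the blue bar is about as long as the green one while the red bar is short.

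Several of these genes varied together. Over the 6 libraries, log2 CPM of ANGPTL4 correlated with that of ABHD4 at r = -0.996, of CPT1A at -0.995, of ANGPTL2 at -0.92, of PLIN2 at -0.80 and of PPARG at -0.73, while PPARD (0.63), HILPDA (-0.25) and PPARA (-0.22) followed it less closely. These values describe 6 libraries that share 2 treatments and a replicate 1 that stood apart. Such values were common: of 9696 other genes with at least 5 CPM, 1253 correlated with ANGPTL4 above 0.9 and 1050 below -0.9, together 23.8%. Among the 5 genes whose pattern was most like that of ANGPTL4 were SHC3 (0.999), an adaptor of receptor tyrosine kinases, RNF145 (0.998), a ubiquitin ligase of the endoplasmic reticulum, PRMT1 (0.998), an arginine methyltransferase, and DDX60 (0.998), an antiviral helicase. Of these, SHC3 and DDX60 changed by less than ANGPTL4, with means of 8.10 ± 1.34 and 11.5 ± 1.67 CPM for SHC3 and 8.41 ± 2.85 and 17.4 ± 5.05 CPM for DDX60.

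Levels of different genes were compared per length, in FPKM. With TGF-β the order ran from ABHD4 (38.9 ± 12.8 FPKM) to PLIN2 (18.3 ± 4.61), PPARD (13.9 ± 0.93), ANGPTL2 (11.5 ± 3.78), PPARG (11.5 ± 2.15), HILPDA (4.96 ± 0.76), CPT1A (4.51 ± 0.93), PPARA (3.33 ± 0.17), ANGPTL4 (1.94 ± 1.36) and PDK4, which was listed above 0 in 1 library. Neighbours were separate in all libraries between ABHD4 and PLIN2, between PPARG and HILPDA and between ANGPTL4 and PDK4, and the other neighbours overlapped. With CXCL10, ANGPTL4 moved in this order from the ninth place to the fifth, at 7.60 ± 4.81 FPKM, where it overlapped its neighbours PPARG (8.86 ± 1.81) and ANGPTL2 (6.95 ± 0.59). ABHD4 stayed first at 18.96 ± 5.52 FPKM and overlapped PPARD (14.1 ± 0.53), and PLIN2 stood at 12.5 ± 1.39 FPKM.

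**Figure D4:**
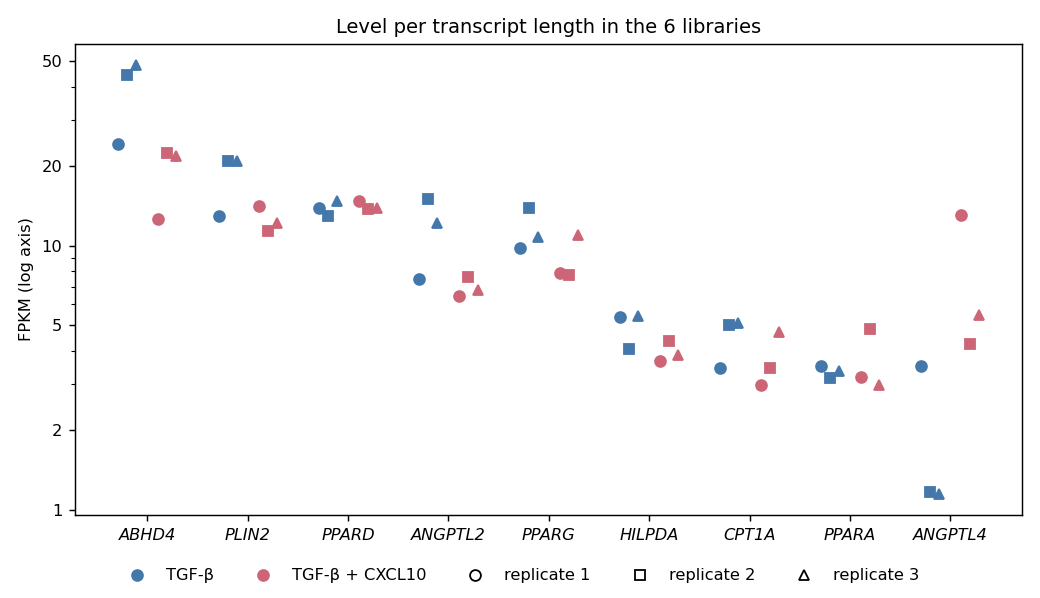
FPKM (vertical log axis) of 9 genes in each library, ordered by their mean in the TGF-β group, with symbols for the replicate number and PDK4 left out because it was listed at 0 in 5 libraries. ABHD4 is highest in the TGF-β group, and ANGPTL4 moves from below 4 FPKM in each TGF-β library to above 4 FPKM in each CXCL10 library.

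For some of these genes the FPKM and count columns did not move together. Counts over FPKM give the transcript length that the authors' FPKM implies in each library. This length was nearly constant for ANGPTL2 (3443 bases in each library), ANGPTL4 (1831 to 1872 bases), PPARG (1830 to 1878 bases) and PPARD (3692 to 3722 bases). For PPARA it ranged from 5198 bases in CXCL10 replicate 2 to 9225 bases in TGF-β replicate 3, a ratio of 1.77. For CPT1A it ranged from 2611 bases in CXCL10 replicate 3 to 4160 bases in TGF-β replicate 2, a ratio of 1.59, and for HILPDA from 1030 to 1364 bases, a ratio of 1.32. Of 9684 tested genes with at least 50 counts in every library, 7.57% had a ratio above 1.5 and 17.2% above 1.3. Accordingly, CPT1A stood at 3.43, 5.01 and 5.08 FPKM with TGF-β and at 2.96, 3.44 and 4.72 FPKM with CXCL10, groups that overlap, and its unpaired change on log2(FPKM + 1) was -0.23. PPARA had its highest FPKM (4.83) in CXCL10 replicate 2, where its count (322) was the lowest, and its difference turned from -0.11 in counts to 0.09 on log2(FPKM + 1). Whether different transcripts of these genes were used was not tested.

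Other genes of the pathways around these 10 genes are given by lists. Over all tested genes the paired fit called 9.71% higher and 8.04% lower, with a median log2 change of -0.01, and the counts and medians of the lists stand beside these values. No list was tested as a set. Besides the genes above, 35 PPAR targets were tested, and in the paired fit 1 rose, 6 fell and 28 were not called, with a median log2 change of -0.10. The gene that rose was MGLL (0.56, SE 0.09, adjusted p = 0.000749), the lipase that cleaves monoglycerides, from 72.3 ± 20.1 to 105 ± 6.96 CPM. Among those that fell were ECI1 (-0.48, SE 0.10), an isomerase for the oxidation of unsaturated fatty acids, SLC27A1 (-0.51, SE 0.11), a fatty acid transporter, and IMPA2 (-0.88, SE 0.19), an inositol monophosphatase. FGF21, ADIPOQ and PLIN5, targets known from liver, fat or muscle, had 0 counts in all libraries. In the unpaired test 0 of the 35 were called. The KEGG annotation of the deposited table, a list chosen after the values were seen, puts 43 tested genes in the PPAR signaling pathway, of which 4 rose and 8 fell in the paired fit, with genes of the 10 among them.

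Of the 13 receptor partners and coregulators tested beside the PPARs, 1 rose and 2 fell in the paired fit. The coactivators NCOA2 (-0.40, SE 0.09, adjusted p = 0.0113) and CREBBP (-0.21, SE 0.06, adjusted p = 0.0319) fell, while the coactivator NCOA1 at -0.27 was not called (adjusted p = 0.0885). The median of these 13 genes was -0.09. The changes of NCOA2 and CREBBP were small beside those of ANGPTL4 and ABHD4.

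**Figure D5:**
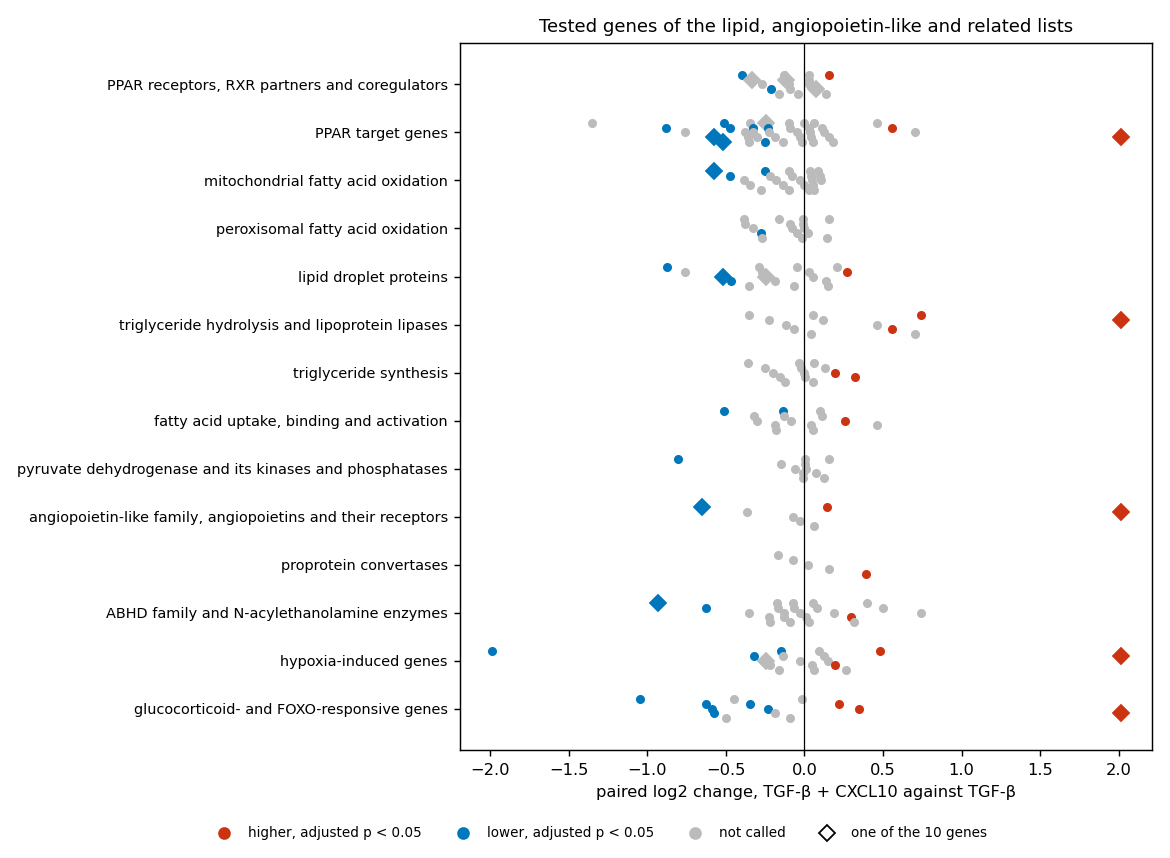
Paired log2 change with CXCL10 (horizontal axis) of every tested gene in 14 lists, 1 point per gene, coloured where the paired edgeR test called it higher (red) or lower (blue) and grey where it did not, with diamonds for the 10 genes described here. Most points of the lipid lists lie within 0.5 of 0, and ANGPTL4 stands alone at 2.01.

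Of 22 mitochondrial oxidation genes tested besides CPT1A, 0 rose and 2 fell in the paired fit (all genes: 9.71% and 8.04%), with a median of -0.05. Those that fell were ECI1 and the thiolase ACAA2 (-0.25, SE 0.07, adjusted p = 0.0344). HADH, a dehydrogenase of the same spiral, was at -0.38 (adjusted p = 0.0959) and ACAD10 at -0.22 (adjusted p = 0.169). Of 16 peroxisomal genes 1 fell, the oxidase ACOX3 (-0.28, SE 0.07, adjusted p = 0.0137), and the median was -0.06. PHYH, which starts the breakdown of phytanic acid, was at -0.39 (adjusted p = 0.115), EHHADH at -0.33 (adjusted p = 0.266) and SCP2 at 0.14 (adjusted p = 0.137).

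Of 15 lipid droplet proteins tested besides PLIN2 and HILPDA, 1 rose and 2 fell in the paired fit, with a median of -0.07, beside 9.71% and 8.04% of all genes. METTL7A, a droplet-associated methyltransferase-like protein, fell by 0.88 on the log2 scale (SE 0.09, adjusted p = 3.82e-05), from 33.2 ± 4.15 to 18.0 ± 1.63 CPM, and LDAH, a droplet hydrolase, changed by -0.46 (SE 0.14, adjusted p = 0.0404). PLIN3, the perilipin that moves between cytosol and droplet, rose by 0.27 (SE 0.05, adjusted p = 0.00239) while PLIN2 fell. HSD17B11 was at -0.29 (adjusted p = 0.0951).

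Of the lipases that ANGPTL4 and its relatives act on, LIPG rose in the paired fit and LPL was not called. LPL, the enzyme inhibited by ANGPTL4, stood at 2.68, 1.93 and 0.977 CPM with TGF-β and at 2.11, 4.50 and 2.47 CPM with CXCL10, with overlapping groups and paired values of 0.71 for the log2 difference and 0.38 for its SE (adjusted p = 0.236). GPIHBP1, which anchors LPL on capillary endothelium, had 0 counts. LIPG, the endothelial lipase, rose by 0.74 (SE 0.14, adjusted p = 0.00242), from 7.69 ± 1.81 to 12.9 ± 3.10 CPM. Of 11 genes of triglyceride hydrolysis tested besides ANGPTL4, LIPG and MGLL rose, 0 fell and 9 were not called, among them the lysosomal lipase LIPA (-0.12, adjusted p = 0.143), and the median was 0.06. FURIN, one of the convertases that cleave ANGPTL4 into its domains, rose by 0.39 (SE 0.05, adjusted p = 0.000269), as 1 of 5 proprotein convertases tested (median 0.02), while PCSK6 (-0.17, adjusted p = 0.0620) and PCSK7 (0.15, adjusted p = 0.289) were not called.

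Of 14 tested genes of fatty acid uptake, binding and activation 1 rose and 2 fell in the paired fit (median -0.11), with the arachidonate-preferring ligase ACSL4 at 0.26 (SE 0.05, adjusted p = 0.00446) and SLC27A1 and the receptor LRP1 (-0.13, SE 0.04, adjusted p = 0.0257) lower. ACSL1 was at -0.19 (adjusted p = 0.0641). Of 14 triglyceride synthesis genes 2 rose and 0 fell, the glycerol phosphate acyltransferases GPAM (0.32, SE 0.08, adjusted p = 0.0158) and GPAT4 (0.19, SE 0.06, adjusted p = 0.0350), with a median of -0.01. AGPAT4 was at -0.25 (adjusted p = 0.104) and the phosphatase LPIN1 at 0.13 (adjusted p = 0.248).

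With PDK4 near 0, PDK2 was the member of the pyruvate dehydrogenase list that changed. It fell by 0.80 on the log2 scale (SE 0.15, adjusted p = 0.00208), from 16.0 ± 3.95 to 9.12 ± 2.04 CPM, 1 of 11 genes tested in this list (median 0.00). Its libraries stood at 11.5, 17.7 and 18.8 CPM with TGF-β and 7.73, 11.5 and 8.17 CPM with CXCL10, so TGF-β replicate 1 and CXCL10 replicate 2 nearly met. PDK1 was at 0.13 (adjusted p = 0.507), PDHB at -0.15 (adjusted p = 0.145) and DLAT at 0.15 (adjusted p = 0.1504).

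Among 22 other genes of the ABHD family and of N-acylethanolamine metabolism, 1 rose and 1 fell in the paired fit, with a median of -0.04. ABHD17A, a depalmitoylase, rose by 0.30 (SE 0.08, adjusted p = 0.0214) and ABHD8 fell by 0.63 on the log2 scale (SE 0.18, adjusted p = 0.0293), while ABHD17C (0.50, adjusted p = 0.0610) and ABHD10 (0.31, adjusted p = 0.0763) were not called. Of 5 other genes tested among angiopoietins, their relatives and receptors, the integrin ITGB1 rose (0.14, SE 0.04, adjusted p = 0.0212), and ITGA5 (0.06, adjusted p = 0.358) and ANGPT1 (-0.07, adjusted p = 0.604) were not called.

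ANGPTL4, HILPDA and PDK4 share inducers with other genes. In the paired fit 2 of 15 further hypoxia-induced genes rose and 3 fell, with a median of 0.05, beside 9.71% and 8.04% of all genes. VEGFA (0.19, SE 0.05, adjusted p = 0.0225) and the glycolytic regulator PFKFB4 (0.48, SE 0.10, adjusted p = 0.00618) rose. The demethylase KDM3A (-0.32, SE 0.09, adjusted p = 0.0219) and the carbonic anhydrase CA12 (-1.99, SE 0.54, adjusted p = 0.0216) fell, the latter from 1.59 ± 0.37 to 0.39 ± 0.20 CPM. Of 13 glucocorticoid- and FOXO-responsive genes 2 rose and 6 fell, with a median of -0.35. KLHL24 (-1.04, SE 0.13), TSC22D3 (-0.59, SE 0.08), SESN1 (-0.63, SE 0.10) and KLF9 (-0.58, SE 0.11) fell, with paired adjusted p values of 0.000120, 0.000197, 0.000661 and 0.00280. The median of this list in TGF-β replicate 1 was 0.44 below that in TGF-β replicates 2 and 3 (log2), a shift at least as large as the change with CXCL10.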

How the data were processed

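Per the labels' protocols, an RNeasy kit gave the RNA and a SMARTer mRNA-seq kit the libraries. Builds named in the submitters' processing notes are GRCm38 and mm10, while 0 of the 20323 row identifiers match the mouse annotation. The sources used here do not give the aligner, counter, annotation or strand setting. Per the file headers, the deposited table holds raw counts and FPKM per gene and library, the authors' group means, their log2 ratio of mean FPKM, and the authors' p-value and adjusted p, from a test that is not given.

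Samples were grouped by the treatment label. The quasi-likelihood test of edgeR 4.0.16 (R 4.3.3) was run on the counts with TMM scaling, after filterByExpr (minimum count 10, minimum total 15), with a Benjamini-Hochberg threshold of 0.05 over all genes. CPM are TMM-scaled, apart from the limit of 3 counts, which uses total counts. Log2 CPM use a prior count of 2. SEs are the log2 change over the root of the F statistic. The unpaired fit was the principal one. Libraries with the same number deviated together from their group means, with correlations of 0.330, 0.121 and 0.163 across genes, each over the set minimum of 0.1, so the fit with the replicate number as a block is given as well. Replicates 2 and 3 also correlated across numbers, at 0.0803 and 0.0825, so their numbers are weakly matched. Replicate 1 correlated with the other numbers at -0.223 to -0.165. This pairing comes from the data and rests mainly on replicate 1. Alternatives used DESeq2 1.42.0, limma 3.58.1, other scalings and filters, and leave-outs. The code was tested on simulated counts that held no replicate effect. That test therefore does not check the block where a replicate stands apart, as here.

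The 10 genes and all gene lists were chosen with earlier results of these data known. Named besides the 10 genes are up to 4 members of each list with the lowest p in the paired fit, the 5 genes most like ANGPTL4, and some list members at or near 0 counts or, like LPL, of direct bearing, chosen after their values were seen. A few genes that fall under these rules are not reported here.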

Additional observations from a re-analysis of the deposited data

How the results depend on the processing

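Without a block, edgeR called 0 genes, also with limma-voom, limma-trend on log2(FPKM + 1) or log2(FPKM + 0.1), RLE or library-total scaling, no filter, or a mean of at least 5 CPM (smallest adjusted p from 0.0673 to 0.189, with 1987 to 2730 genes at an unadjusted p under 0.05). Calls over all genes, over the 10 genes and over the other genes of the lists (179 tested) numbered 2124, 5 and 36 with the replicate block, 1138, 4 and 16 with DESeq2 and the replicate block, 689, 2 and 8 with limma-trend on log2(FPKM + 1) and the replicate block, 335, 1 and 9 with DESeq2 without a block, and 2236, 5 and 38 with library totals and the replicate block. That last setting moved the split over all genes from 1162 higher and 962 lower to 877 and 1359, with a median log2 change over all genes of -0.05 in place of -0.01. Leaving out 1 library without a block gave 0 calls, except without TGF-β replicate 1 (2348, 5 and 35). Leaving out both libraries of replicate 1, 2 or 3 in the paired fit gave 2846, 1241 and 904 calls over all genes, 6, 4 and 5 of the 10 genes and 51, 18 and 15 of the list genes. Of the 5 genes called with the replicate block, DESeq2 with the replicate block lost PLIN2, and limma-trend on log2(FPKM + 1) with the replicate block lost PLIN2, ANGPTL2 and CPT1A. ANGPTL4, ANGPTL2, PPARD, PPARG, PLIN2, HILPDA, CPT1A and ABHD4 kept their direction in all 21 alternatives. PPARA reversed on log2(FPKM + 1), with and without the replicate block (0.0853), and on log2(FPKM + 0.1) (0.10). PDK4 did not pass filterByExpr and is not given here. Fewer than 100 counts per library stand behind HILPDA and, in the TGF-β group, ANGPTL4, which limits their precision.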
